A study of Mus musculus with 4 samples.

Results

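Early granule-stage neutrophil precursors were followed in dissociated mouse spinal cord, and 211 such cells were found among 20454 cells that passed the quality limits, out of 22644 barcodes. Single-cell RNA sequencing of transcript 3' ends was used, which counts each captured RNA molecule once by its unique molecular identifier (UMI). Kept cells held 500 UMIs or more from 200 genes or more, and no more than 15% of their UMIs were mitochondrial. A kept cell was a member with at least 3 UMIs of the primary group Elane, Prtn3, Mpo and Fcnb together and at least 3 UMIs of Ngp, Camp and Lcn2 together. Members also had no Cd79a or Cd3e UMI, the B and T cell receptor genes, and under 0.5% of UMIs from C1qa, C1qb and C1qc, the complement genes of microglia and macrophages. These 7 granule genes and 5 exclusion genes chose the cells, so their levels are given below as a description.

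Of the 4 groups, 1 was labelled P301S hom CD8 KO and was 30 weeks old, and the other 3 were CD8 WT: P301S hom aged 33 weeks, P301S hom aged 30 weeks and P301S neg aged 30 weeks. Here hom and neg stand for homozygous and negative, and unless stated otherwise P301S hom and P301S neg below mean the CD8 WT libraries. The P301S transgene encodes mutant human tau and serves as a tauopathy model, and the labels name neither the promoter of the transgene nor how CD8 was removed. Each group was 1 library from the pooled cords of 2 mice that were perfused with saline. A tumour dissociation kit and warm mechanical dissociation were used on the cords, beads took away myelin, and the labels give the cells as leukocytes and spinal cord cells. With 1 library per group no difference between groups has a replicate check, no test was made, and intervals cover counting error only.

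Neutrophils form in the bone marrow from myeloblasts through promyelocytes, myelocytes and metamyelocytes. Promyelocytes load primary (azurophil) granules with serine proteases such as Elane and Prtn3 and with the peroxidase Mpo. Myelocytes shut these genes off and load specific granules with Ltf, Camp, Ngp and Lcn2 under the transcription factor Cebpe, and division ends as later cells turn on gelatinase granule and mobility genes such as Mmp9, Retnlg and Cxcr2. Cells with both kinds of RNA therefore stand at the step from the primary to the specific granule programme, a step that in healthy adults belongs to marrow.

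Of the 10 granule genes that the results turn on, 7 had a stretch upstream of the RefSeq start free of annotated exons. These stretches are shown as a description of the genes compared below. Each is 125 bases long and ends 66 bases before the gene's start in RefSeq on GRCm38.p6, 5′ to 3′ on the gene's own strand. GENCODE gene models place some starts elsewhere: the start is 1 base after the window's end for Elane, 5 for Ngp, 45 for Ltf and 59 for Fcnb, it is 66 for Ctsg and Ms4a3, and the Prtn3 window lies inside the longer GENCODE gene. Capitals mark matches on either strand to TTNNGCAA, a core of C/EBP sites, or GAGGAA, a core of PU.1 sites, and no 2 matches overlap.
Elane (primary granule), chr10:79886122-79886246, + strand: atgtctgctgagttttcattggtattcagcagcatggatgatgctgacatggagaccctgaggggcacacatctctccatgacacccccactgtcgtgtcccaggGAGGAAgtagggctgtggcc
Prtn3 (primary granule), chr10:79879477-79879601, + strand: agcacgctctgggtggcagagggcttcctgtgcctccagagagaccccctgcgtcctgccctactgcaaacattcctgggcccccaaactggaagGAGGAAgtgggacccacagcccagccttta
Ctsg (primary granule), chr14:56102640-56102764, - strand: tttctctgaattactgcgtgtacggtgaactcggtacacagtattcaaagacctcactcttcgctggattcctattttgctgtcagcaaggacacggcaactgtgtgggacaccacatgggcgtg
Ms4a3 (expressed at the promyelocyte stage), chr19:11640917-11641041, - strand: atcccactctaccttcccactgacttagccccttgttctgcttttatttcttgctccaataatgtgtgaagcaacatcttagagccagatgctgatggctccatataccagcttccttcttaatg
Fcnb (ficolin B), chr2:28084944-28085068, - strand: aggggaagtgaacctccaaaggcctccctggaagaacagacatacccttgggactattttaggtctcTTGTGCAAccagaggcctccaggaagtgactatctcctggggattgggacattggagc
Ngp (specific granule), chr9:110419618-110419742, + strand: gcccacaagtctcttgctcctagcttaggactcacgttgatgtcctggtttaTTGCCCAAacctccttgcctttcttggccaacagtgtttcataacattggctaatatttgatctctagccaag
Ltf (specific granule), chr9:111019102-111019226, + strand: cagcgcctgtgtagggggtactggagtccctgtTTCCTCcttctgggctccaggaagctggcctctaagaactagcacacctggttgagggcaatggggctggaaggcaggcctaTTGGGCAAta
The window of Elane held GAGGAA at 85 to 80 bases before the RefSeq start, and that of its neighbour Prtn3 at 95 to 90. TTNNGCAA matched in Fcnb at 123 to 116, in Ngp at 138 to 131 on the other strand and in Ltf at 75 to 68, and Ltf also held GAGGAA on the other strand at 157 to 152. Neither sequence was in the windows of Ctsg and Ms4a3, and TAACNG, a core of MYB sites, was in none of the 7. Of 32817 windows of the same length in the genome's genes, 5.07% held TTNNGCAA, 12% GAGGAA and 10.3% TAACNG. A match is a description of letters in these windows only, and whether it bears on any difference between libraries was not tested.

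Several properties of the libraries bear on every comparison. The 4 libraries held 36331214 to 43531426 UMIs over 5107 to 6433 barcodes, and kept cells had medians of 5302 to 7232 UMIs. The library labelled CD8 KO went against its label in part: Cd8a RNA over its kept cells was 32.6 CPM (counts per 1000000 UMIs), against 1.45 to 2.18 CPM in the other 3, whereas 3 of its 61 Cd3e-bearing cells held a Cd8a UMI, against 23 of 68, 23 of 52 and 12 of 34 in P301S hom aged 33 weeks, P301S hom aged 30 weeks and in P301S neg. It is therefore called the library labelled CD8 KO. Cells were called female from Xist or male from Y-linked UMIs, and among members so called 0 were female and 7 male in the library labelled CD8 KO, 29 and 4 in P301S hom aged 33 weeks, 76 and 0 at 30 weeks, and 27 and 23 in P301S neg. Sex and the CD8 label cannot be told apart at 30 weeks. In P301S hom aged 33 weeks females were 87.9% of the sexed members (71.8 to 96.6%) and 56.4% of all sexed kept cells, against 54.0% and 56.6% in P301S neg. Of the sexed intermediate neutrophils, a later stage defined below, females were 75% at 33 weeks and 39.8% in P301S neg. Between libraries 35 kept barcodes were shared, none of them a member's.

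Members made up the smallest share of cells in the library labelled CD8 KO and the largest in P301S hom aged 30 weeks. There were 10 members in the library labelled CD8 KO (0.195% of kept cells, exact binomial 95% interval 0.0934 to 0.358%), 41 in P301S hom aged 33 weeks (0.849%, 0.610 to 1.15%), 83 in P301S hom aged 30 weeks (1.75%, 1.39 to 2.16%) and 77 in P301S neg (1.34%, 1.06 to 1.67%). The intervals of P301S hom and P301S neg at 30 weeks overlapped, and that of the library labelled CD8 KO overlapped none of the others. All cells counted as neutrophil lineage, from primary-only to mature cells by the limits given below, were 225, 676, 685 and 829 in the same order of libraries. They made up 4.38%, 14%, 14.4% and 14.4% of kept cells, so the whole lineage so counted was sparse in the library labelled CD8 KO. Fewer cells of the lineage in the cord and fewer recovered in the tube cannot be told apart here.

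Within the lineage, the members' share was 4.44% (2.15 to 8.02%) in the library labelled CD8 KO, 6.07% (4.39 to 8.14%) in P301S hom aged 33 weeks, 12.1% (9.77 to 14.8%) at 30 weeks and 9.29% (7.40 to 11.5%) in P301S neg. The interval at 33 weeks did not overlap that at 30 weeks in P301S hom CD8 WT. The stages on either side were counted as primary-only cells (at least 3 UMIs of the primary group, under 3 of Ngp, Camp and Lcn2), intermediate cells (under 3 of the primary group, at least 10 UMIs of Ngp, Camp and Ltf) and mature cells (neither, with at least 3 UMIs of Retnlg, Cxcr2 and Csf3r and at least 1% S100a8 and S100a9). The primary-only cells numbered 14, 86, 66 and 84 and the intermediate cells 106, 305, 349 and 400, in the order labelled CD8 KO, 33 weeks, 30 weeks and P301S neg. There were thus 9.43, 13.4, 23.8 and 19.3 members per 100 intermediate cells, and 71.4, 47.7, 126 and 91.7 per 100 primary-only cells, in that order. Only P301S hom aged 30 weeks held more members than primary-only cells. Both neighbours carried RNA of other lineages. Over all libraries, monocyte markers summed to 3945 CPM in primary-only cells and 1190 CPM in members, and basophil and mast cell markers to 3090 and 762 CPM. In intermediate cells erythroid markers summed to 10482 CPM, against 1712 CPM in members, and endothelial markers to 2304 CPM, against 516 CPM. Whether other cells or free RNA supplied these was not tested, and the lineage shares and ratios carry this limit.

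Cells of other marrow lineages were in every library, and their numbers moved partly with the members. Cells with erythroid genes numbered 88, 475, 206 and 352, and cells with B-precursor genes 39, 61, 75 and 251, in the same order. The library labelled CD8 KO was lowest in both, as it was in members, while the library at 33 weeks was highest in erythroid cells and low in members. Whether marrow or blood entered the tissue at dissection was not tested.

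**Figure D1:**
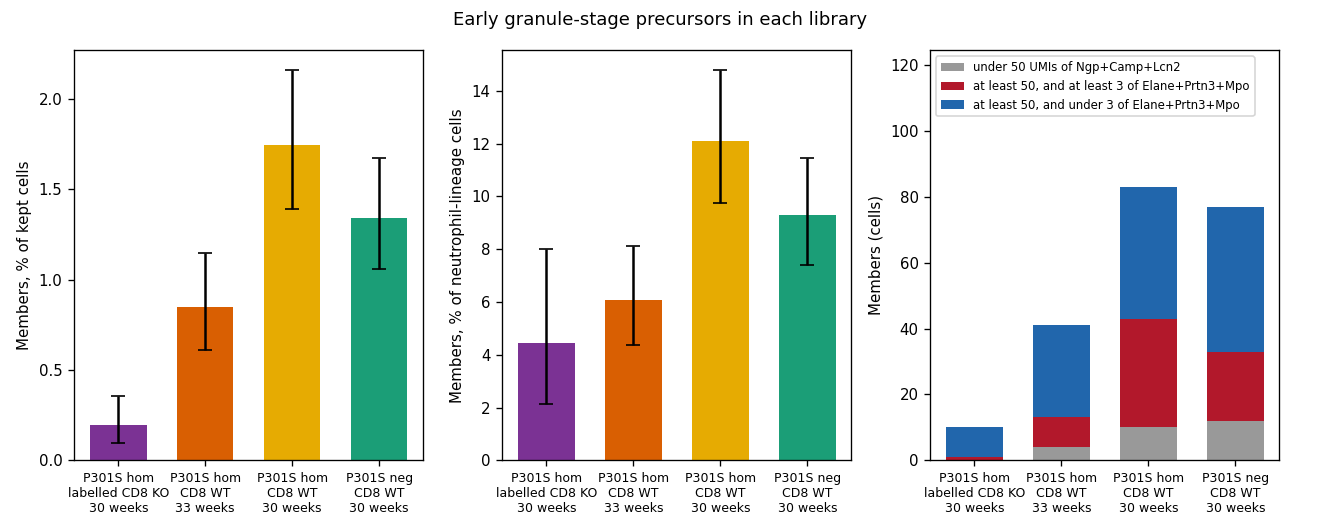
The left and middle panels plot the members' share of kept cells and of neutrophil-lineage cells (%) with exact 95% binomial intervals, and the right panel the number of members, split by granule class, for the library labelled CD8 KO, P301S hom CD8 WT at 33 and 30 weeks and P301S neg. Shares are lowest in the library labelled CD8 KO (0.195% and 4.44%) and highest in P301S hom aged 30 weeks (1.75% and 12.1%).

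The label of early granule-stage precursors was borne out only in part, because most members had specific granule RNA in large amounts and primary granule RNA near the threshold. Per cell, the median was 1651 UMIs of Ngp, Camp and Lcn2, up to 6476, but 9 UMIs of the primary group, up to 1504. All 5 markers, Elane, Mpo, Prtn3, Fcnb and Camp, were found together in 42 of 211 members, which were 0, 6, 24 and 12 cells in the library labelled CD8 KO, P301S hom aged 33 weeks, P301S hom aged 30 weeks and P301S neg. At least 3 UMIs of Elane, Prtn3 and Mpo were present in 1 of 10, 13 of 41, 43 of 83 and 32 of 77 members, or 10%, 31.7%, 51.8% and 41.6%. No UMI of these 3 genes was present in 5, 17, 24 and 31 members, which were chosen by Fcnb alone.

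The primary threshold cut through a continuous distribution: 32 members had exactly 3 primary UMIs, with a median of 1160 Ngp, Camp and Lcn2 UMIs, and 62 cells just outside had 2, with a median of 856.5. At the other edge 12 members had exactly 3 Ngp, Camp and Lcn2 UMIs and a median of 66.5 primary UMIs, and 33 cells had 2, with a median of 33. Free RNA in droplets can supply such small counts. In cells with at least 3 UMIs of Cldn5, an endothelial gene, at least 3 UMIs of Ngp, Camp and Lcn2 were found in 3.70%, 2.45%, 3.73% and 7.45%, and of the primary group in 0 of 1458, 1 of 1103, 0 of 1100 and 1 of 2001, in the same order of libraries, at medians of 5619, 4966, 5840 and 6424 UMIs. Members were deeper, at medians of 14074, 11890, 14555 and 13546 UMIs. The primary group was thus close to absent from endothelial cells, while a count of 3 for Ngp, Camp and Lcn2 was within what those cells held.

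A split made after the values were seen separated 3 kinds of member. The first kind, 121 cells (57.3%), had at least 50 UMIs of Ngp, Camp and Lcn2 and under 3 of Elane, Prtn3 and Mpo, and is called the Fcnb class, since Fcnb brought these cells in. The second, 64 cells (30.3%), had at least 50 of the first and at least 3 of the second group and is called the double-granule class. The third, 26 cells (12.3%), had under 50 UMIs of Ngp, Camp and Lcn2 and is called the low-specific class. The Fcnb class was 9 of 10 members in the library labelled CD8 KO (90%, 55.5 to 99.7%), 28 of 41 in P301S hom aged 33 weeks (68.3%, 51.9 to 81.9%), 40 of 83 at 30 weeks (48.2%, 37.1 to 59.4%) and 44 of 77 in P301S neg (57.1%, 45.4 to 68.4%). The double-granule class was 1, 9, 33 and 21 cells, or 10%, 22.0%, 39.8% and 27.3%, and the exact intervals of all 4 libraries overlapped.

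**Figure D2:**
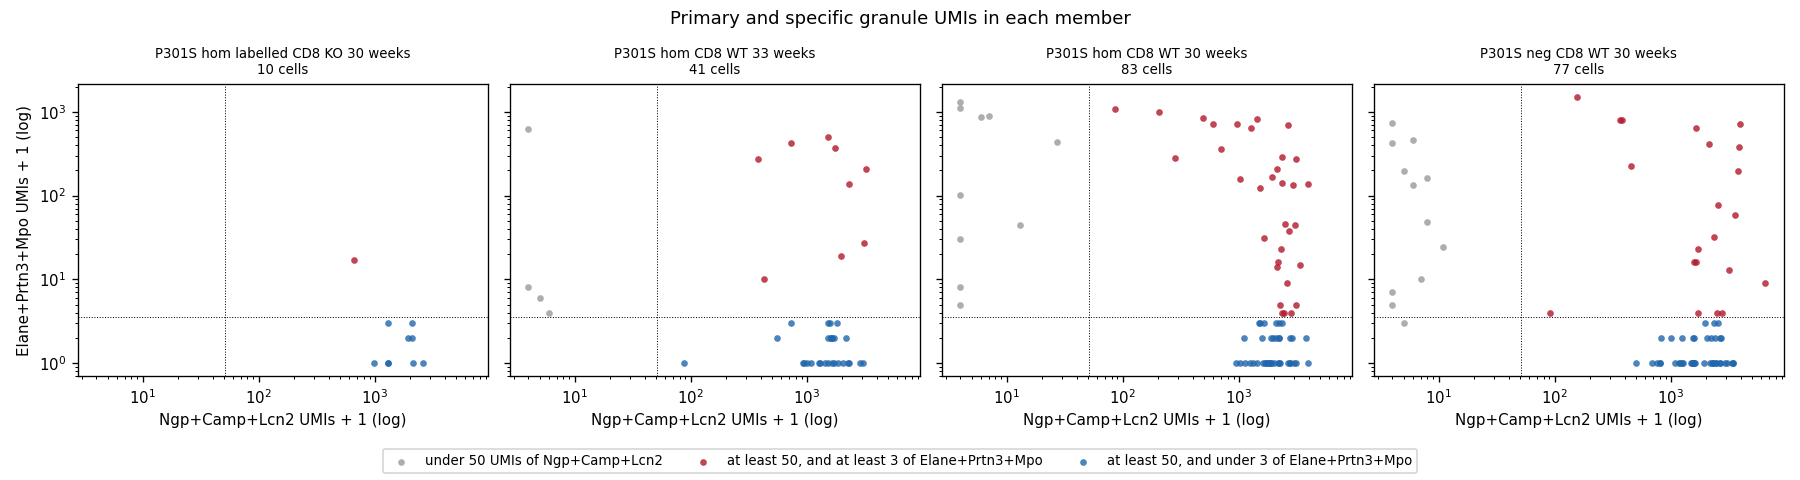
Each point is 1 member, with UMIs of Ngp, Camp and Lcn2 plus 1 on the horizontal log axis and UMIs of Elane, Prtn3 and Mpo plus 1 on the vertical log axis, in a panel per library with colours for the 3 classes. The 121 Fcnb-class cells lie along the bottom right, the 64 double-granule cells rise at the right, and the 26 low-specific cells are at the left, with none in the library labelled CD8 KO.

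Some members carried RNA of other cell types. Of the 26 low-specific cells, 13 had at least 100 UMIs of Elane, Prtn3 and Mpo, and 10 had over 0.5% of UMIs from a list of 10 monocyte markers, which 0 of the other 185 members reached. Over 1% of UMIs came from a basophil and mast cell list in 2 members (up to 11.6%), from an erythroid list in 3 (up to 20.5%, 1 cell of P301S hom aged 33 weeks and 2 of P301S neg), and from the monocyte, microglia and endothelial lists in 1 each. The summed basophil and mast level was 0, 2.10, 911 and 990 CPM in the library labelled CD8 KO, P301S hom aged 33 weeks, P301S hom aged 30 weeks and P301S neg, and the erythroid level 85.6, 7724, 132 and 1173 CPM. Of 10 T and NK markers 7 were at 0 in all members, as were 4 of 9 B cell and 4 of 8 eosinophil markers, and no member held a Cd8a UMI. One member of P301S hom aged 30 weeks had 88545 UMIs, against 40998 in the next, with 1753 UMIs of Fos and genes of astrocytes and ependymal cells.

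Elane, neutrophil elastase, varied widely among members. Its summed level was 0 in the 10 members of the library labelled CD8 KO, which allows up to 23.3 CPM at 3 counts, 2936 CPM in P301S hom aged 33 weeks, 5692 CPM at 30 weeks and 3237 CPM in P301S neg. The RNA was in 0 of 10, 16 of 41, 43 of 83 and 31 of 77 cells, with up to 294, 643 and 676 UMIs in a cell in the 3 CD8 WT libraries in that order. Of Cldn5 cells, 0%, 0.363%, 2.64% and 1.20% held an Elane UMI. Elane was thus missing from many members of each library, above all from those of the library labelled CD8 KO.

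Prtn3, proteinase 3, encoded beside Elane, and Mpo, myeloperoxidase, followed the same order of libraries. Prtn3 was at 117 CPM in the library labelled CD8 KO, 1983 CPM in P301S hom aged 33 weeks, 3935 CPM at 30 weeks and 2662 CPM in P301S neg. Mpo was at 54.5, 577, 1188 and 982 CPM in that order. Ctsg, cathepsin G, another primary granule protease outside the selection rule, was at 0, 285, 425 and 366 CPM, and Ms4a3, a membrane protein gene of promyelocytes, at 187, 521, 589 and 452 CPM. All 5 were highest in P301S hom aged 30 weeks and lowest in the library labelled CD8 KO.

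Fcnb, a secreted lectin of the lectin complement pathway, did not keep that order. Its level was 483 CPM in the library labelled CD8 KO, 636 CPM in P301S hom aged 33 weeks, 482 CPM at 30 weeks and 560 CPM in P301S neg, with medians of 6, 6, 6 and 7 UMIs per cell and a UMI in 9, 36, 80 and 72 cells. Of Cldn5 cells at most 0.100% held a Fcnb UMI. Fcnb was the most even of the 4 primary-group genes across libraries. The rule sets part of this, because the 77 members without an Elane, Prtn3 or Mpo UMI needed at least 3 Fcnb UMIs.

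The specific granule genes were high in every library. Camp, the cathelicidin precursor, was at 61398, 59079, 58616 and 50329 CPM, and Ngp, neutrophilic granule protein, at 52051, 52008, 46590 and 47731 CPM, in the order labelled CD8 KO, 33 weeks, 30 weeks and P301S neg. Lcn2, an iron-siderophore binding lipocalin, was at 13651, 13141, 9994 and 11750 CPM. Ltf, lactoferrin, which the rule did not use, was at 8592, 7428, 5863 and 6839 CPM and was found in 10, 36, 69 and 62 members, against 0.892%, 2.09%, 1.64% and 4.50% of Cldn5 cells. Ltf and Lcn2 were lowest where Elane was highest.

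The classes differed in what the split did not use. Ctsg was at 302 CPM in double-granule cells and 3.99 CPM in Fcnb-class cells over all libraries, and Ms4a3 at 878 and 187 CPM. Ltf ran the other way, at 3890 CPM in double-granule and 10687 CPM in Fcnb-class cells, as did Cd177, a surface protein of specific granules, at 343 and 723 CPM. Cebpe, which drives specific granule genes, was at 511 and 439 CPM, close to equal. Intermediate cells held 8609 CPM of Ltf, 194 CPM of Cebpe and 18.5 CPM of Ms4a3 over all libraries, less of each than Fcnb-class cells, but in the library labelled CD8 KO Ltf was at 9240 CPM in Fcnb-class and 9244 CPM in intermediate cells.

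Across the 185 members outside the low-specific class, the per-cell level of Elane, Prtn3 and Mpo together ran with Ms4a3 (Spearman rho 0.68), Ctsg (0.62) and a 20-gene S phase list (0.52), and against Ltf (-0.68), Lcn2 (-0.65), S100a8 (-0.62) and Cd177 (-0.51). It was weakly related to Ngp (-0.33), Camp (-0.09), Cebpe (0.10) and the G2/M list (-0.03, and -0.34 at 33 weeks). Within libraries the rho for Ltf was -0.53 in P301S hom aged 33 weeks, -0.81 at 30 weeks and -0.59 in P301S neg. These are descriptions without a test, over cells that share a library and total, and the level also ran with a cell's total UMIs (0.32). Elane, Prtn3, Mpo, Lcn2, Ngp and Camp are genes by which the cells were chosen.

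Set against the neighbouring stages, the low-specific class resembled primary-only cells in protein-making genes. A list of 12 nucleolus and ribosome assembly genes summed to 2896 CPM in low-specific, 854 CPM in double-granule and 313 CPM in Fcnb-class members, against 2899 CPM in primary-only and 276 CPM in intermediate cells. A list of 16 genes of protein folding and secretion summed to 7185, 2993 and 1493 CPM in the 3 classes, against 6518 CPM in primary-only and 1321 CPM in intermediate cells. Irf8, a factor of monocyte precursors, was at 125 CPM in low-specific, 2.83 in double-granule and 6.65 CPM in Fcnb-class members and at 207 CPM in primary-only cells. Both lists were highest in the low-specific class, lower in the double-granule class and lowest in the Fcnb class, which was nearest to the intermediate cells.

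Genes of mature neutrophils were largely off in members. Retnlg was at 330 CPM in members, against 10585 CPM in intermediate and 28409 CPM in mature cells, and Mmp8, neutrophil collagenase, at 43.4 CPM, against 2084 and 2316 CPM. Cxcr2, the receptor that draws neutrophils out of marrow, was at 18 CPM in members, 224 CPM in intermediate and 1067 CPM in mature cells. Retnlg and Cxcr2 helped to choose the mature cells, so their levels there are a description, whereas Mmp8 did not. By library, Cxcr2 in members was at 31.1 CPM in the library labelled CD8 KO, 29.4 CPM in P301S hom aged 33 weeks, 18 CPM at 30 weeks and 11.9 CPM in P301S neg.

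Apart from Prtn3, Fcnb and Mpo, which the rule used, the genes that most separated members from intermediate cells in all 4 libraries were Ms4a3, Nkg7 and genes of DNA synthesis. Of the 12 highest, 6 were replication genes or a replication-linked histone: Rrm2 (ribonucleotide reductase), Tk1, Dut, Tyms, Mcm5 and Hist1h1b. Rrm2 was at 366, 403, 413 and 401 CPM in members of the library labelled CD8 KO, P301S hom aged 33 weeks, P301S hom aged 30 weeks and P301S neg, against 29.9, 48.7, 54.3 and 48.8 CPM in the intermediate cells of the same libraries. The lowest log2 ratio of Rrm2 over the 4 libraries, with 10 CPM added, was 2.72, and that of Igfbp4, an insulin-like growth factor binding protein and the last of the 12, was 2.12. Elane was not among the 12, its RNA being at 0 in 1 library.

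**Figure D3:**
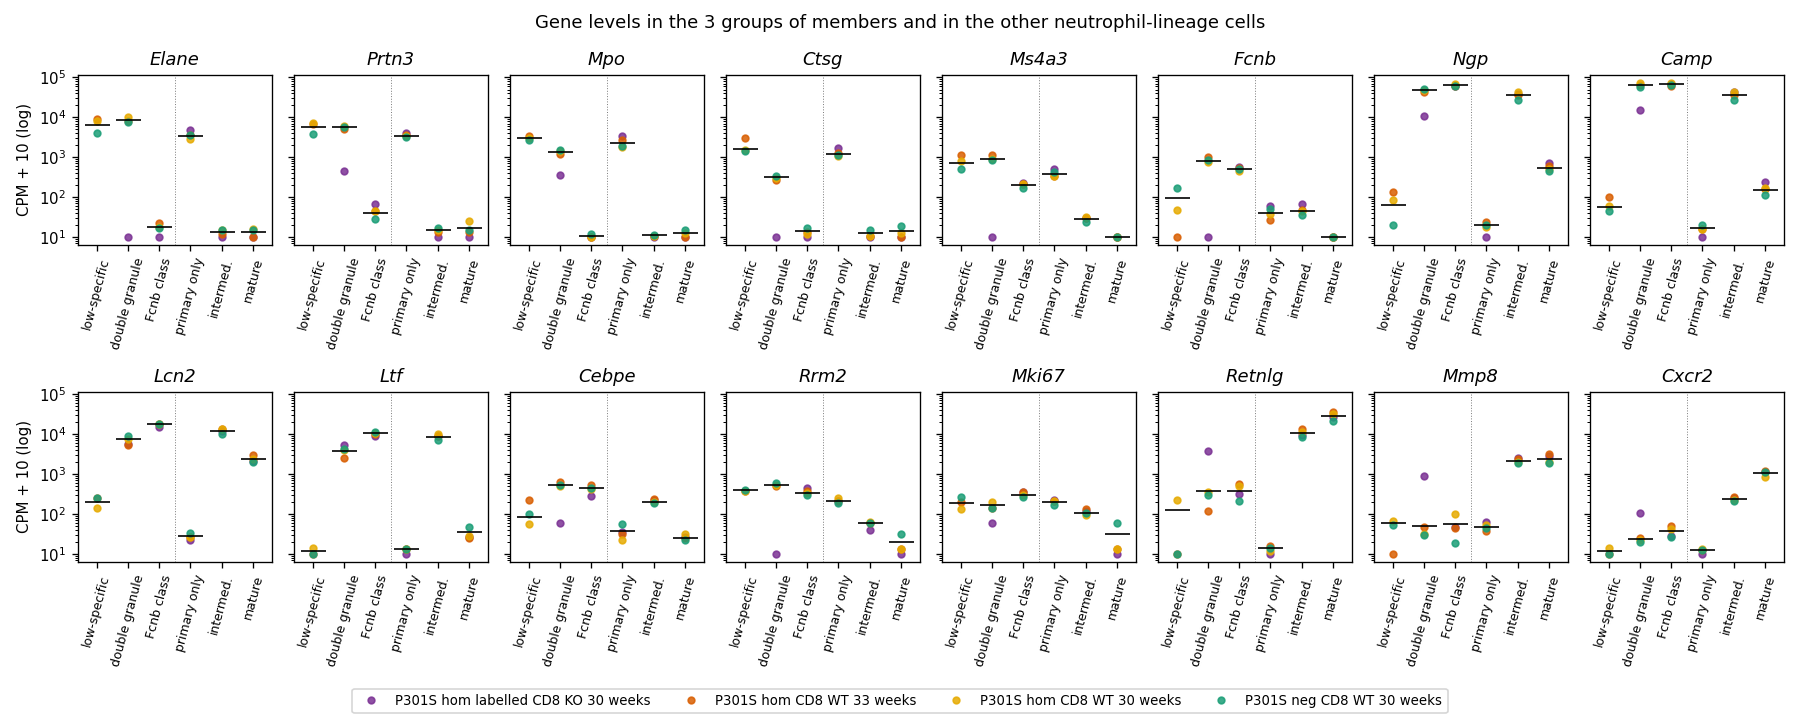
Each panel plots 1 gene's CPM plus 10 on a log axis in low-specific, double-granule and Fcnb-class members and, right of the dotted line, in primary-only, intermediate and mature cells, with a point per library and a bar for all libraries together. The library labelled CD8 KO has 1 double-granule and no low-specific cell. Ctsg drops between the double-granule class (302 CPM pooled) and the Fcnb class (3.99 CPM), while Ltf is higher in the Fcnb class (10687 CPM) and Retnlg stays low until the intermediate cells (10585 CPM).

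RNA of cell division was found in a large share of members in every library, more often than in the stage after them. With each cell thinned to 2000 UMIs, at least 2 UMIs of a 20-gene G2/M list were found in 6 of 10 members of the library labelled CD8 KO (60%, 26.2 to 87.8%), 31 of 38 in P301S hom aged 33 weeks (81.6%, 65.7 to 92.3%), 57 of 83 at 30 weeks (68.7%, 57.6 to 78.4%) and 54 of 76 in P301S neg (71.1%, 59.5 to 80.9%). Thinning left out 3 members at 33 weeks and 1 in P301S neg, and without it the shares were 90%, 90.2%, 90.4% and 80.5%. Intermediate cells reached 12.3%, 13.3%, 12.8% and 23.3%, and Cldn5 cells 0.222%, 0.402%, 0.482% and 1.43%, in the same order. Of the intermediate cells 0, 2, 0 and 22 held both Xist and Y-linked UMIs. Whether other cells or free RNA bear on the share in P301S neg was not tested. All 4 members' intervals overlapped one another, and each except that of the library labelled CD8 KO lay above 50%.

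The 2 classes with much specific granule RNA differed more in S phase than in G2/M genes. The S phase list summed to 2498 CPM in double-granule and 1368 CPM in Fcnb-class members, against 345 CPM in intermediate cells, and the G2/M list to 2740 and 3110 CPM, against 983 CPM. At least 2 S phase UMIs per 2000 were found in 0 of 1, 88.9%, 90.9% and 85% of double-granule members and in 55.6%, 66.7%, 55% and 45.5% of Fcnb-class members of the library labelled CD8 KO, P301S hom aged 33 weeks, P301S hom aged 30 weeks and P301S neg, and in 10.0 to 11.9% of Cldn5 cells. Mki67, the proliferation marker, was at 157 CPM in double-granule, 290 CPM in Fcnb-class and 98.0 CPM in intermediate cells.

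**Figure D4:**
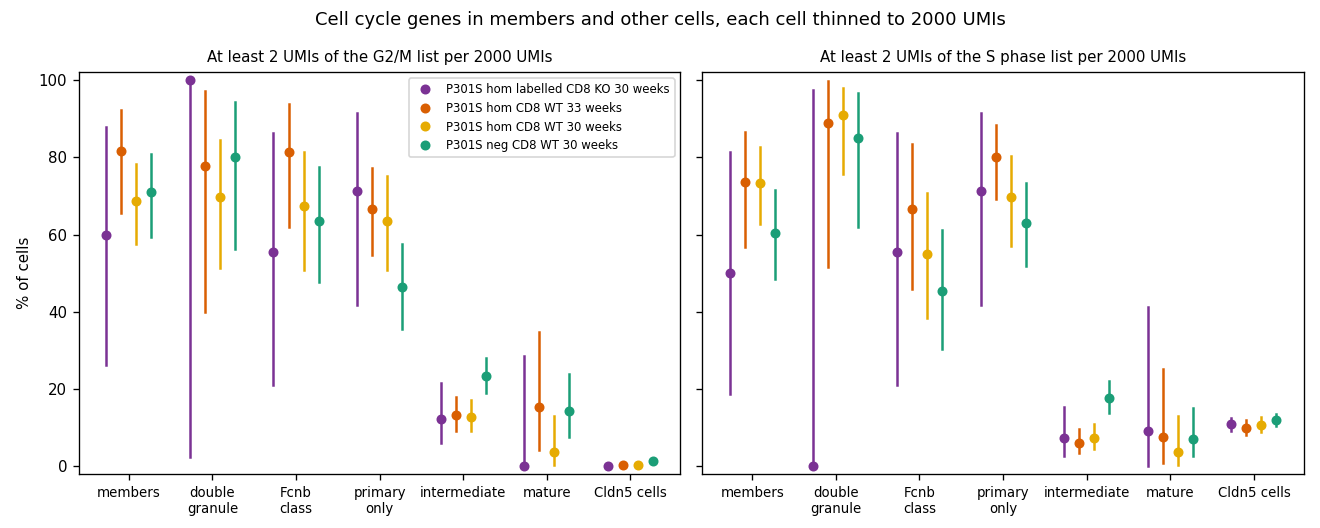
The share of cells (%) with at least 2 UMIs of the G2/M list (left) and of the S phase list (right) after thinning each cell to 2000 UMIs is plotted with exact 95% binomial intervals for members, the neighbouring stages and Cldn5 cells, with a point per library. Members lie between 60% and 81.6% for G2/M, above intermediate cells at 12.3 to 23.3%.

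For the comparisons between libraries, UMIs were summed over members and scaled to CPM, genes whose UMIs in the compared libraries came to 50 or more were tested, and a 1.5-fold difference was counted. The 3 comparisons share the library of P301S hom aged 30 weeks, so they are not independent. Each list's genes are counted beside the share of all tested genes that passed.

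In P301S hom over P301S neg members at 30 weeks, Elane was higher in P301S hom and its neighbour Prtn3 came close to the 1.5-fold limit, while most other granule genes differed by less. Elane was at 5692 CPM in P301S hom and 3237 CPM in P301S neg members (1.76-fold, 1.69 to 1.83), and Prtn3 at 3935 and 2662 CPM (1.48-fold, 1.41 to 1.55). Mpo was 1.21-fold (1.12 to 1.31) and Ms4a3 1.30-fold (1.16 to 1.46), under the limit. In female cells alone Elane was 1.19-fold and Prtn3 0.997-fold. Within the double-granule class Elane was 1.35-fold (10196 CPM in P301S hom, 7547 CPM in P301S neg) and Prtn3 1.04-fold, and that class was 39.8% of P301S hom and 27.3% of P301S neg members. The parts of class and sex in the difference over all members were not tested.

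Of the 9 primary granule genes tested that the rule did not use, none was higher in P301S hom and 1 lower (Ctsc, the protease that activates the serine proteases of granules), with a median log2 ratio of 0.08. Over all 4277 tested genes 6.22% were higher and 5.96% lower, with a median of -0.02, and 9.10% differed with an interval that excluded 1. Of the 14 specific granule genes outside the rule 1 was higher (Mmp8) and 1 lower (Olfm4, olfactomedin), with a median of -0.06. Camp was 1.16-fold, Ngp 0.976-fold, Lcn2 0.851-fold, Ltf 0.857-fold and Fcnb 0.862-fold in P301S hom. No G2/M gene of 20 passed, with a median of -0.12, nor any of 6 NADPH oxidase subunits (-0.10) or 12 glycolysis genes (0.09).

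The mature neutrophil list had 4 of 16 tested genes higher in P301S hom and none lower (Mmp9, Retnlg, Mmp25 and Trem1), beside 6.22% higher and 5.96% lower of all genes. Mmp25 rested on 31 UMIs in P301S hom and 19 in P301S neg, with an interval that included 1 (0.826 to 2.83). Mmp9 (1.06 to 2.46) was found in 12 and 13 cells. Retnlg, a resistin-like secreted protein, was at 379 CPM in 44 of 83 P301S hom members and 197 CPM in 33 of 77 P301S neg members (1.92-fold, 1.64 to 2.26), and 1.57-fold in female cells. Of its 484 UMIs in P301S hom members, 120 were in 1 cell. Mmp8 was at 57.2 and 18.6 CPM (3.07-fold, 1.88 to 5.19) but in 11 and 6 cells only. Among members with at least 50 UMIs of Ngp, Camp and Lcn2, 5 of 15 mature genes were higher, where 3.53% of 3262 genes were higher and 6.47% lower, and the median was 0.42. The levels of Retnlg and Mmp8 stayed far under those of intermediate cells.

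Genes with the largest ratios came from few cells. The 8 highest by the naming rule, Nnat, Mt3, Sox9, Clu, Ecrg4, Meg3, Ccn1 and Mt2, had 97.2 to 100% of their P301S hom UMIs in the 1 cell of 88545 UMIs. Of the 8 lowest, 7 (S100a4, S100a10, Crip1, F13a1, Ms4a6c, Ccr2 and Itgb7, several of them monocyte genes) had 92.8 to 100% of their P301S neg UMIs in low-specific cells. The other was Stx2, a membrane fusion protein, at 12.5 CPM in 16 P301S hom cells and 37.2 CPM in 32 P301S neg cells (0.336-fold, 0.177 to 0.608), and 0.352-fold in female cells.

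Among members with at least 50 UMIs of Ngp, Camp and Lcn2, the higher genes included Slc7a11, the cystine transporter, at 83.6 CPM in P301S hom and 31.8 CPM in P301S neg (2.63-fold, 1.73 to 4.11). Hist1h2ap, a replication-linked histone, was at 149 and 52.2 CPM (2.86-fold, 2.07 to 4.01), and the keratin Krt81 at 74.7 and 24.6 CPM in 17 and 8 cells (3.04-fold, 1.90 to 5.03). Thbs1, thrombospondin, was 2.80-fold in these cells but 0.612-fold among female members. These genes were chosen after their values were seen.

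In members of the library labelled CD8 KO, against those of P301S hom aged 30 weeks, the primary granule proteases were nearly missing. The specific granule genes were not. Its 14 primary-only cells held Elane at 4841, Prtn3 at 4004, Mpo at 3310 and Ctsg at 1659 CPM. The 66 primary-only cells of P301S hom aged 30 weeks held 2802, 3392, 1766 and 1076 CPM. Elane, Prtn3 and Mpo helped to choose the primary-only cells, so their levels there are a description, whereas Ctsg did not. Elane had 0 UMIs in 10 members, against 7270 in 83 (at least 244-fold lower, at a floor of 3 counts), and Ctsg 0 against 543 (at least 18.2-fold lower). Prtn3 was 33.7-fold lower (20.4 to 60.3) and Mpo 21.8-fold lower (10.6 to 54.4). Without the 1 member of that library called a doublet, which held 9 of the 15 Prtn3 UMIs and all 7 Mpo UMIs, Prtn3 was 70.8-fold lower (32.5 to 193), and Mpo had 0 UMIs in 9 members, against 1518 (at least 42.7-fold lower). Fcnb was 1.0-fold (0.758 to 1.30), Camp 1.05-fold, Ngp 1.12-fold, Lcn2 1.37-fold and Ltf 1.47-fold, and without that cell Lcn2 was 1.52-fold and Ltf 1.58-fold, past the limit. The 10 cells had 0, 0, 0, 0, 0, 1, 1, 2, 2 and 16 UMIs of Elane, Prtn3 and Mpo together, and the cell with 16 was the doublet call. Of the 83 cells of P301S hom CD8 WT, 24 had none, 43 at least 3 and 25 at least 100, which none of the 10 cells reached. The fold floors and intervals cover counting error only, not which cells were caught.

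Within the Fcnb class the low primary granule RNA of that library's members was not seen, since the class holds under 3 UMIs of Elane, Prtn3 and Mpo by definition. There Prtn3 was 1.57-fold, Ms4a3 1.12-fold and the list's median log2 ratio 0.04. Of the 9 primary granule genes outside the rule, over all members, 1 was higher (Ctsc) and 5 lower (Cst7, Nkg7, Srgn, Ctsg and Ms4a3), with a median of -1.20, beside 11.1% higher and 24.7% lower of 2809 genes and a median of -0.13. The 10 cells held 128489 UMIs in all, against 1277303 in the 83 cells, and 12.2% of genes differed with an interval that excluded 1. Of the 13 specific granule genes outside the rule 2 were higher (Mmp8 and Olfm4) and 1 lower (Ceacam1), with a median of 0.32. Without the doublet call 3 were higher (Adpgk, Ltf and Olfm4) and 2 lower (Ceacam1 and Mmp8), beside 11.1% higher and 34.3% lower of all genes. Of 15 folding and secretion genes 1 was higher and 9 lower over all members (median -0.57).

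Of 15 mature neutrophil genes 7 were higher in the library labelled CD8 KO and none lower (Il1r2, Il1b, Slpi, Mmp9, Ccl6, Retnlg and Trem1; median 0.37), beside 11.1% higher and 24.7% lower of all genes. Without the doublet call 5 were higher (Il1r2, Il1b, Slpi, Ccl6 and Trem1) and 2 lower (Mmp9 and Csf3r), beside 11.1% and 34.3%, and the median was -0.09. Mmp9 then rested on 2 UMIs and Csf3r on 3 UMIs in the library labelled CD8 KO. Intervals included 1 for Mmp9 (0.0426 to 1.35), Csf3r (0.121 to 1.85), Il1b (0.946 to 2.62) and Trem1 (0.913 to 3.65). Mmp9 was at 101 CPM against 51.7 CPM with that cell, which held 11 of its 13 UMIs. Without it Mmp9 was at 18.5 CPM against 51.7 CPM, under the floor of 3 counts. Slpi, a secreted inhibitor of elastase, was at 1004 CPM in 9 of 10 members, against 288 CPM in 68 of 83 (3.48-fold, 2.83 to 4.27), and 41.1% of its UMIs were in 1 cell. It was 3.47-fold without the doublet call, 4.58-fold in the Fcnb class, and 3.48-fold in male cells against the male cells at 33 weeks (121 against 13 UMIs). Retnlg was 2.30-fold with the doublet call and 0.807-fold without it, and Mmp8 3.0-fold and 0.649-fold, and that cell held 81.8% of the Mmp8 UMIs. Plek, pleckstrin, was 3.82-fold (2.16 to 6.52) in 6 and 24 cells and Ets2, a transcription factor, 2.96-fold (1.81 to 4.67) in 7 and 39.

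Cebpe was lower in the library labelled CD8 KO, at 234 CPM against 371 CPM (0.629-fold, 0.420 to 0.910), and 0.514-fold (0.343 to 0.744) among members with at least 50 UMIs of Ngp, Camp and Lcn2, but 0.724-fold (0.480 to 1.05) without the doublet call, under the 1.5-fold limit. It was found in all 10 members, with a median of 2.5 UMIs against 5. Of 19 G2/M genes none was higher and 5 lower (Aurka, Cdk1, Hmmr, Aurkb and Kif20b; median -0.43), close to the 24.7% lower of all genes, and their sum was 0.895-fold (0.793 to 1.01). Without the doublet call 2 were higher (Tpx2 and Mki67) and 5 lower, beside 11.1% higher and 34.3% lower of 2765 genes. Fabp5 and Lmo2, 2 of the 8 highest genes, had 93.5% and 76.2% of their UMIs in 1 cell. Among the lowest genes Prss34, a mast cell and basophil protease, had 99.9% of its P301S hom CD8 WT UMIs in 1 cell with basophil-list RNA.

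In P301S hom CD8 WT members at 33 over 30 weeks, Elane, Prtn3 and Mpo were lower at 33 weeks by similar factors. Elane was at 2936 CPM at 33 weeks and 5692 CPM at 30 weeks (0.516-fold, 0.487 to 0.546), Prtn3 0.504-fold and Mpo 0.486-fold. In female cells alone they were 0.490-, 0.480- and 0.471-fold. Within the double-granule class they were 0.791-, 0.859- and 0.873-fold, none of them past 1.5-fold. Among members with no more primary than specific UMIs, 38 at 33 weeks and 68 at 30 weeks, Elane was 0.806-fold and Prtn3 0.832-fold, also under the limit, and Mpo turned to 1.05-fold (0.867 to 1.27). The double-granule class was 22.0% of members at 33 weeks and 39.8% at 30 weeks. Ms4a3 was 0.884-fold and Ctsg 0.671-fold.

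Of the 9 primary granule genes outside the rule none was higher at 33 weeks and 1 lower (Cst7), with a median of -0.17, beside 4.71% higher and 13% lower of 3293 genes, a median of -0.04, and 11.5% with an interval that excluded 1. Of the 13 specific granule genes outside the rule 1 was lower (Mmp8) and none higher, and the median was 0.25, with Ltf 1.27-fold. Of the rule's genes Fcnb was 1.32-fold, Lcn2 1.31-fold and Ngp 1.12-fold. Cebpe was 1.44-fold and Chil3, a chitinase-like protein of early neutrophils, 1.40-fold, both under the limit. Nucleolus genes were lower in 6 of 9 (median -0.59) over all members, but the median was 0.09 among members with at least 50 UMIs of Ngp, Camp and Lcn2.

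G2/M genes were higher at 33 weeks in 5 of 20 (Cdc20, Plk1, Hmmr, Cks2 and Ccnb1) and lower in none, beside 4.71% and 13% of all genes, with a median of 0.36 and a sum of 3474 CPM at 33 weeks and 2599 CPM at 30 weeks (1.34-fold, 1.26 to 1.42). Among members with at least 50 UMIs of Ngp, Camp and Lcn2, 4 of 20 were higher, where 6.02% of 2540 genes were higher and 4.92% lower, and the median was again 0.36. Top2a, a DNA topoisomerase, was 1.40-fold (1.18 to 1.67), Mki67 1.29-fold (1.04 to 1.60) and the cohesin gene Smc3 2.05-fold (1.43 to 2.92) in 27 and 42 cells. In the Fcnb class the list's median was 0.44 and in the double-granule class 0.01.

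Of 16 mature neutrophil genes 3 were higher at 33 weeks, among them Ccl6 and Mmp25, and none lower, beside 4.71% and 13% of all genes. The chemokine Ccl6 was 2.42-fold (1.60 to 3.67) in 6 and 9 cells, and the interferon-induced Ifi27l2a 2.83-fold (1.74 to 4.63) in 5 and 10 cells. Of the 8 lowest genes, all (Prss34, Ccn1, Nnat, Mt2, Mt3, Ecrg4, Maff and Zfp36l1) had 96.1 to 100% of their 30-week UMIs in 1 cell each.

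**Figure D5:**
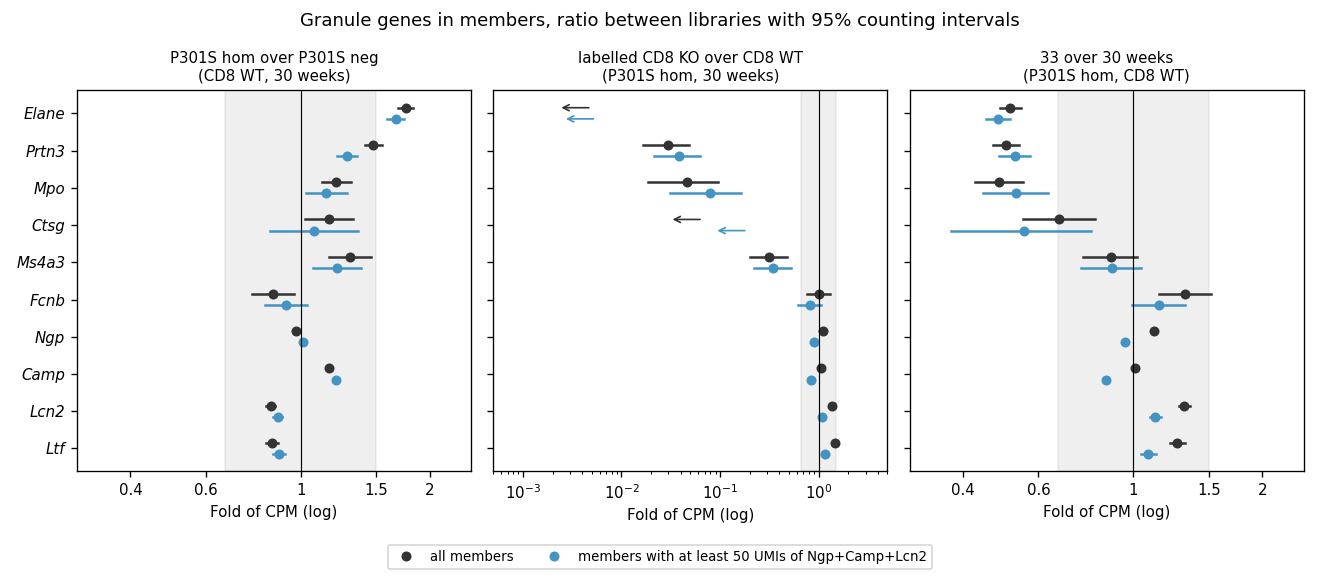
For primary and specific granule genes the fold of member CPM with its 95% counting interval is plotted on a log axis for the 3 comparisons, over all members and over members with at least 50 UMIs of Ngp, Camp and Lcn2, and the grey band spans folds under 1.5. Over all members Elane, Prtn3 and Mpo lie left of the band at 33 over 30 weeks (0.516-, 0.504- and 0.486-fold), while Fcnb, Ngp, Camp, Lcn2 and Ltf stay inside it in that comparison.

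Most transcription factors of granulocytes differed by less than 1.5-fold between libraries. Gfi1, a repressor needed for granulocyte formation, was at 15.6 CPM in members of the library labelled CD8 KO, 14.7 CPM in P301S hom aged 33 weeks, 14.1 CPM in P301S hom aged 30 weeks and 16.9 CPM in P301S neg. It was found in 1, 5, 11 and 13 members, and the first level is under the floor of 23.3 CPM, so evenness is not shown. Myb, a factor of dividing precursors, was at 70.0, 44.1, 47.0 and 50.8 CPM, and at 37.1 CPM in the Fcnb class of the library labelled CD8 KO. Of the factors tested, 1 of 10 was lower in P301S hom over P301S neg (Irf8), where 5.96% of all genes were lower, and 1 of 9 at 33 weeks (Klf4), where 13% were. Under the CD8 KO label 1 of 9 was higher (Runx1) and 2 lower (Klf4 and Cebpe), near the 11.1% and 24.7% of all genes.

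Dissociation and heat shock genes, immediate early genes that also rise when tissue is digested warm, had no stable direction among members. Over all members their median log2 ratio was 0.83 in P301S hom over P301S neg (9 of 16 higher, 2 lower), -0.70 in the library labelled CD8 KO against CD8 WT (1 higher and 9 lower of 15) and -1.09 at 33 over 30 weeks (12 of 15 lower). All tested genes were higher in 6.22%, 11.1% and 4.71% and lower in 5.96%, 24.7% and 13% in these comparisons. Without the 2 basophil-list cells and the cell of 88545 UMIs these medians were -0.99, 0.58 and 0.24. That cell alone held 76.7% of the Fos UMIs of its library's members. The interferon response list differed in 0 of 5 genes in P301S hom over P301S neg, was higher in 1 of 3 in the library labelled CD8 KO and in 1 of 4 at 33 weeks, and lower in none.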

How the data were processed

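The authors deposited raw UMI counts for each gene in each cell, made with Cell Ranger 6.0.1 per the file headers, with mm10 as the genome per the submitters' processing notes. Tables held 32285 genes, of which 38 symbols have several identifiers. Members, gene lists and the rules were chosen with earlier results of these data known. Counts were summed over members of each library (128489 to 1277303 UMIs), scaled to CPM, and given with exact Poisson, conditional binomial and Clopper-Pearson 95% intervals. Log2 ratios had 10 CPM added. Doublets stayed in, because the rule has no such step; scrublet (scanpy 1.11.5, 6% expected) called 69, 42, 59 and 98 cells (1.34%, 0.870%, 1.24% and 1.71% of kept cells in the order labelled CD8 KO, 33 weeks, 30 weeks and P301S neg). Named genes were the rule's genes, the 8 highest and 8 lowest ratios per comparison among genes that had 50 UMIs in both libraries together, 30 CPM in the higher one and were not over 3 times higher in other cells, up to 6 genes per list, and the 12 that most separated members from intermediate cells. Not all are printed, 1 gene is not reported here, and further ones are said to be chosen after their values were seen. The code for ratios was run on simulated counts with known folds, drawn independently for each gene. Such draws lack the crowding of UMIs in few cells seen here, so they cannot check the spread between cells. Tools were pandas 2.3.3, scipy 1.17.1, numpy 2.4.6, matplotlib 3.10.9 and anndata 0.12.19 in Python 3.11.15, and edgeR 4.0.16 in R 4.3.3 for the TMM alternative.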

Additional observations from a re-analysis of the deposited data

How the results depend on the processing

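No paired analysis was possible because each group is 1 library. The restrictions to members with at least 50 UMIs of Ngp, Camp and Lcn2, to the double-granule class, to the Fcnb class, and to members other than the basophil-list and very high UMI cells were chosen after seeing the data. The cause of a change was not tested unless the setting itself holds it (fewer cells, another count limit).

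With 5 UMIs for both thresholds the share of kept cells was 0.559% at 33 weeks, 1.28% at 30 weeks and 0.906% in P301S neg, and the share of the lineage 4.07%, 9.10% and 6.42%. With cells outside marrow and blood types as denominator it was 1.18%, 2.27% and 1.84%. Shares of kept cells were within counting error of those reported in 22 of 28 alternatives.

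Counts of genes at 1.5-fold, from 521 in P301S hom over P301S neg, 1004 for the CD8 label (KO over WT at 30 weeks) and 583 at 33 over 30 weeks, were, in that order, 347, 623 and 378 with 5 UMIs, 167, 454 and 201 at 2-fold, 7031, 9685 and 7578 with a limit of 1 UMI, 1493, 2545 and 1662 with 20, and 56, 146 and 90 with 200. They were 311, 533 and 245 in members with no more primary than specific UMIs, 326, 584 and 278 with at least 50 specific granule UMIs, and 212, 208 and 173 in the Fcnb class. In the double-granule class they were 170 (P301S hom over P301S neg) and 192 (33 over 30 weeks). With intervals that exclude 1 they were 342 for the CD8 label and 380 for age, and 87 for the CD8 label in male cells against 33 weeks. The library labelled CD8 KO has no member with more primary than specific UMIs, so that setting gives no value there.

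Without thinning, 90% of members under the CD8 KO label and 90.4% in P301S hom CD8 WT at 30 weeks had 2 G2/M UMIs. With a limit of 1 UMI the share at 33 weeks was 94.7%.

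The dissociation list's median log2 ratio turned in P301S hom over P301S neg to -1.24 with 5 UMIs, -0.22 as a mean of cells, -0.94 with no more primary than specific UMIs, -0.91 with at least 50 specific granule UMIs, -0.99 without basophil-list and very high UMI cells, -0.22 in the double-granule and -0.91 in the Fcnb class. For the CD8 label it turned to 0.66, 0.78, 0.75, 0.58, 1.84 and 0.040 under the same settings without the mean of cells, and to 1.36 in male cells against male cells at 33 weeks. At 33 over 30 weeks it turned to 0.15, 0.21, 0.24 and 0.28 under no more primary than specific UMIs, at least 50, without odd cells and the double-granule class. The nucleolus list at 33 over 30 weeks turned to 0.039 with more primary than specific UMIs, 0.093 with no more and 0.094 with at least 50. For the CD8 label the primary granule list turned to 0.035 in the Fcnb class, with Prtn3 0.53, Ms4a3 0.15, Mmp8 -1.12 and Retnlg -0.66. That class holds under 3 UMIs of Elane, Prtn3 and Mpo by definition, so it cannot show a difference seen in these genes over all members. Without doublet calls Mmp8 turned to -0.51 and Retnlg to -0.30. In the 7 male cells against the 4 male cells at 33 weeks, Prtn3 turned to 0.41 and Mpo to 3.04. These rested on 11 against 3 Prtn3 UMIs (fold interval 0.362 to 7.65) and 7 against 0 Mpo UMIs, and the doublet call held all 7. At 33 over 30 weeks Elane turned to 0.36 (4 and 4 UMIs) and Prtn3 to 0.0064 (11 and 18 UMIs) in the Fcnb class, under the same limit. Mpo turned to 0.071 with no more primary than specific UMIs, and Ccl6 to -3.08 with more (0 and 24 UMIs). Slc7a11 in P301S hom over P301S neg turned to -0.37 with more primary than specific UMIs, on 3 and 4 UMIs.

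The counts of 10 to 83 cells limit every level, and 3 counts are 23.3 CPM in the library labelled CD8 KO.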
